A study of Mus musculus with 8 samples.

Results

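Germinal centre B cells of 2 primary immune responses were compared: a T-independent response sorted on day 4 (TI day 4) and a T-dependent response of mice without carrier priming sorted on day 10 (TD day 10). The comparison uses 4 of the 8 arrays of the series, 2 per group, chosen by the immunisation and day in the labels, and covers every probe set that is not a hybridisation control. All mice were F1 animals of the QM and B6 strains. QM mice carry a rearranged heavy chain gene whose product binds the hapten NP when it pairs with a lambda light chain. The TI group received 30 µg of NP coupled to the polysaccharide Ficoll into the peritoneum, as soluble antigen with no adjuvant named. The TD day 10 group received 50 µg of NP on chicken gamma-globulin, precipitated in alum and given with heat-killed Bordetella pertussis. Antigen, adjuvant, dose and day therefore differ together between these groups, and their parts in any difference cannot be told apart.

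Cells of both groups were enriched on magnetic beads and sorted as GL7-positive and B220-positive. The TI arrays held pools of 4 and 10 mice, and each TD day 10 array a pool of 6. The replicates are biological by the study's own description. The other 4 arrays were resting GL7-negative B cells of unimmunised mice and germinal centre cells of a second T-dependent group, TD day 4, which was primed with the carrier and then received 50 µg of NP-carrier conjugate in soluble form. They enter the fit to estimate the spread and are quoted where they place a value.

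Germinal centres are sites in lymphoid follicles where activated B cells divide, mutate their antibody genes and compete for antigen and for T cell help. Multivalent polysaccharide antigens can start them without T cell help, but those germinal centres are short-lived. B cells that leave for antibody secretion become plasmablasts and plasma cells. The transcription factor XBP1, activated by the unfolded protein response, then enlarges the endoplasmic reticulum (ER), and its chaperones, glycosylation enzymes and degradation machinery rise with the load of immunoglobulin.

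The sort was checked on markers of B cells and of other cells. All 9 B cell markers on the array were above the floor of 81 intensity units, the median of all values, on all 4 arrays. Their summed level was 23348 and 24670 on the TD day 10 arrays and 27759 and 27621 on the TI arrays. Bcl6, the transcription factor that maintains germinal centre B cells, read 1475 and 1407 in TD day 10 and 846 and 1034 in TI, against 452 and 438 in resting cells. Its log2 difference between the groups, -0.62 ± 0.17 (SE), did not pass (adjusted p = 0.14). The 6 plasma cell markers on the array summed to 2844 and 3584 in TD day 10 and to 10289 and 13728 in TI, and without Jchain to 984 and 1463 in TD day 10 and 2942 and 4372 in TI. Prdm1, the repressor that drives plasma cell fate, read 49 and 83 in TD day 10 and 76 and 63 in TI, and Sdc1, the surface marker CD138, 38 and -45 against 106 and 37. Both lay near or under the floor in both groups. T cell markers summed to 2292 and 2485 in TD day 10 and to 2453 and 2664 in TI, with 6 of 14 at or under the floor on all 4 arrays. In bulk samples a larger share of secreting cells and more RNA per cell cannot be told apart.

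Of 7253 probe sets tested, 174 (2.4%) differed at an adjusted p under 0.05 in limma, 87 (1.2%) higher and 87 (1.2%) lower in TI, and 1248 had an unadjusted p under 0.05. Every one of the 174 had both TI arrays on one side of both TD day 10 arrays, as did 48.9% of all probe sets tested. The median fold was 3.97 among those higher and 3.18 among those lower, and the median log2 difference of all probe sets tested was -0.08. In 83 of the 174, 1 or more arrays of the dimmer group stood at the floor, and such folds and log2 differences are given as bounds. The count rested on each of the 4 arrays: 4 probe sets were called without TD day 10 replicate 1, 16 without replicate 2, 45 without TI replicate 1 and 23 without TI replicate 2. Of the 174, 139 were called in none of these 4 fits, Xbp1, Hsp90b1, Gcsam, Orc1, Nfkb2, Mxd4 and Ctsb among them, and 4 were called in all. In the fit of these 4 arrays alone 0 were called. All 174 kept their direction in every alternative in which they were tested. Because their arrays did not overlap, leaving out an array or estimating the spread otherwise could not reverse it.

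The TI arrays also differed from the TD day 10 arrays in a measure of RNA integrity and labelling. The ratio of the 3' to the 5' control probe set of Gapdh was 1.24 and 1.68 in TI and 0.836 and 0.896 in TD day 10, and it was 0.867 and 1.59 in resting cells. With this ratio as a covariate 7 probe sets were called, 5 higher and 2 lower. All 174 kept their direction in that fit, and beyond it the part of RNA quality in the calls was not tested.

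**Figure D1:**
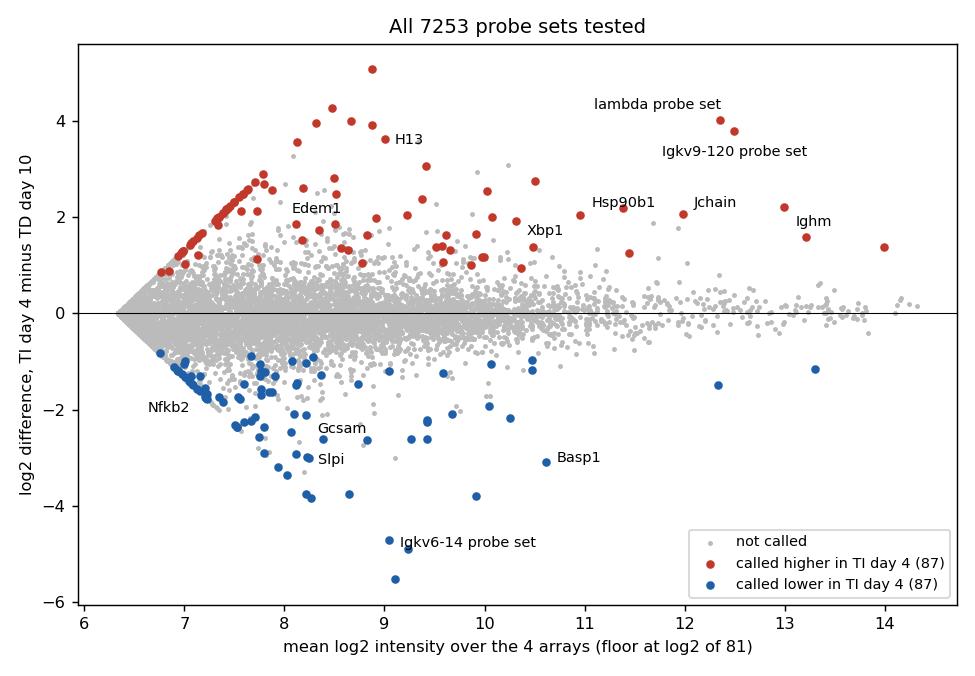
Log2 difference between TI day 4 and TD day 10 (vertical axis) against mean log2 intensity of the 4 arrays (horizontal axis) for the 7253 probe sets tested. The 87 called higher are red and the 87 called lower blue; the diagonal edges are probe sets with 1 group at the floor, and the lambda light chain and Jchain points lie at high intensity.

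Genes of plasma cells and of the secretory pathway were among those that rose in TI. In 5 lists of plasma cell and secretory pathway genes, 14 of 127 tested genes were called higher (11%) and 0 lower, against 1.2% of all probe sets. The median log2 difference of the 127 was 0.363, and in 72 of them both TI arrays exceeded both TD day 10 arrays, as in 19.6% of all probe sets, and in 11 both were below, as in 29.3%. The lists were drawn up with earlier results of these data known and are described, not tested. The count was 0 without TD day 10 replicate 1, 2 without replicate 2, 6 without TI replicate 1 and 3 without TI replicate 2. It was 9 with the replicate number as a block and 0 with the Gapdh ratio as a covariate. The median was 0.392 with that covariate and between 0.340 and 0.437 over the leave-outs of the compared arrays.

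Of 10 genes of plasma cell fate 4 were called higher, against 1.2% of all probe sets. They were Jchain, Xbp1, Isg20 and Edem1, of which Xbp1 and Edem1 also stand in the list of ER-associated degradation below. Jchain, the chain that joins IgM into pentamers, read 1860 and 2121 in TD day 10 and 7347 and 9356 in TI. The TI arrays were both above every other array, since resting cells read 803 and 764 and TD day 4 read 2266 and 2770. The difference was 4.17-fold (log2 2.06 ± 0.20, adjusted p = 0.0098). Xbp1 read 497 and 856 in TD day 10 and 2072 and 2951 in TI, 3.79-fold higher (adjusted p = 0.044). Isg20, an exonuclease found in plasma cells, went from 105 and 89 to 486 and 675, 5.92-fold (adjusted p = 0.007). It read 309 and 298 in resting cells. Tnfrsf17, the receptor BCMA on plasma cells, read 263 and 296 against 563 and 805 and did not pass (log2 1.27 ± 0.24, adjusted p = 0.06). Irf4, a factor needed for plasma cell fate, read 137 and 228 against 125 and 516, with overlapping arrays (log2 0.52 ± 0.83).

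Of 18 genes of ER-associated degradation and the unfolded protein response 6 were called higher, against 1.2% of all probe sets. Xbp1 and Edem1, already counted above, are among them. Edem1, which directs misfolded glycoproteins to degradation, read 118 and 118 in TD day 10 and 639 and 803 in TI. It was 6.07-fold higher (log2 2.60 ± 0.17, adjusted p = 0.004) and was called in 3 of the 4 fits that left out a compared array. Edem2 was 2.60-fold higher, from 448 and 460 to 1078 and 1295. Sel1l, the scaffold of the HRD1 ubiquitin ligase, was at the floor on both TD day 10 arrays and read 326 and 308 in TI, at least 3.91-fold higher. Only the TI arrays of this probe set exceeded the floor, so it passed the filter through them alone. With all other arrays set to the floor, its spread there was not measured, and the counts that include it carry this limit. A second Sel1l probe set did not pass (log2 0.33). H13, the signal peptide peptidase, rose 12.3-fold, from 139 and 155 to 1477 and 2222. Man1b1, a mannosidase that marks glycoproteins for degradation, was at the floor in TD day 10 and read 382 and 540 in TI, at least 5.61-fold higher. Other genes of this list did not pass. Atf4, the factor translated under ER and amino acid stress, differed by -0.20 ± 0.15, Ddit3, which encodes CHOP, by 0.03 ± 0.42, and Herpud1, a membrane protein of ER degradation, by -0.38 ± 0.17 on the log2 scale.

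Chaperones and enzymes of disulfide formation were called in 3 of 27 cases, all higher, against 1.2% of all probe sets. Hsp90b1, the ER member of the HSP90 family, read 985 and 970 in TD day 10 and 3734 and 4400 in TI, 4.15-fold higher (adjusted p = 0.018). Creld2, a chaperone-like protein of the ER, went from 250 and 337 to 1338 and 1708, 5.21-fold (adjusted p = 0.0093). Prdx4, a peroxiredoxin of the ER, went from 199 and 185 to 634 and 758, 3.61-fold (adjusted p = 0.024). TD day 4 read 726 and 1195 for Hsp90b1, 300 and 306 for Creld2 and 194 and 210 for Prdx4, all below both TI arrays. Hspa5, which encodes BiP, read 928 and 1029 against 1983 and 2037 and missed the threshold (log2 1.04 ± 0.19, adjusted p = 0.054). Txndc5, a disulfide isomerase, read 594 and 289 against 3083 and 3950, but its spread between arrays in the 4 groups was wide (log2 3.07 ± 0.79, adjusted p = 0.12). Dnajc3, a co-chaperone of BiP, rose in 1 of 3 probe sets (log2 1.83 ± 0.19, adjusted p = 0.012), the others differing by 1.48 and 0.19. Clgn, an ER chaperone outside the list, fell in 1 of 2 probe sets, from 274 and 278 to 140 and 158 (log2 -0.89 ± 0.15, adjusted p = 0.04), the other differing by 0.14.

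**Figure D2:**
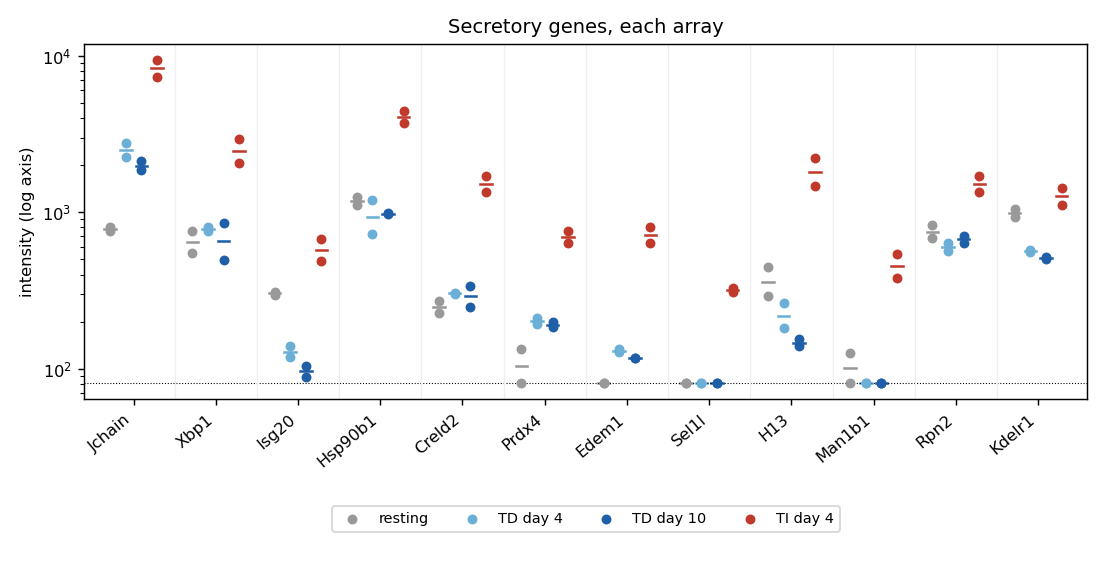
Intensity on each of the 8 arrays (log axis) for 12 secretory genes, with the geometric mean of each group as a bar and values under 81 drawn at the floor (dotted). The 12 were chosen from the secretory genes called higher. That both TI day 4 arrays lie above both TD day 10 arrays in each follows from that choice.

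The promoters of these genes were read for the ER stress response element, the sequence to which ATF6 and XBP1 bind together with NF-Y. Its letters are CCAAT, any 9 bases and then CCACG, searched on both strands from 250 bases before to 50 after the start in RefSeq promoters of GRCm38.p6. It was present in 0.119% of 32851 promoters, in 10 of 4358 tested genes with a promoter (0.229%) and in 7 of 25 genes of the chaperone list with a promoter (28%). Among called genes it was present in 3 of 59 that were higher (5.08%) and 0 of 41 that were lower. The 3 are Creld2, Hsp90b1 and Dnajc3. They are shown with Hspa5, which missed the threshold, because the elements lie beside the genes whose values are given above. Capitals mark the ends of the element, CCAAT and CCACG or their reverse complements, read 5′ to 3′ on the strand of the gene. A match is a description of these letters and not a measured binding site.
Hsp90b1, chr10:86705508-86705576, minus strand: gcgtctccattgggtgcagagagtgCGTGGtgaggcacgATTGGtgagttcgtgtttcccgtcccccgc
Hsp90b1, chr10:86705613-86705681, minus strand: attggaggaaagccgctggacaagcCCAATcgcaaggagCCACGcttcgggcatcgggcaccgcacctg
Creld2, chr15:88819495-88819563, plus strand: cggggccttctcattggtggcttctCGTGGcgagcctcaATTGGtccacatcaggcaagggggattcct
Dnajc3, chr14:118937802-118937870, plus strand: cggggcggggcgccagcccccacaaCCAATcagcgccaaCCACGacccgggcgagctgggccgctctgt
Hspa5, chr2:34772000-34772068, plus strand: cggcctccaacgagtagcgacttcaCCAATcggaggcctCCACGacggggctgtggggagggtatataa

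The element ends 89 and 194 bases before the start of Hsp90b1, 108 before that of Creld2, 87 before that of Dnajc3 and 47 before that of Hspa5. Canx, Ero1b and Pdia6 hold it too, and none of these genes was called. The log2 differences were -0.36 and -0.26 for Canx and -0.27 and 0.18 for Pdia6. The shorter element TGACGTGG, bound by XBP1, was present in 0.676% of promoters, in 1.28% of tested genes and in 1 of 59 genes called higher (1.69%). It overlaps the first motif in the bases CCACG, which alone were present in 32.8% of promoters. That gene is Isg20, with TGACGTGG on the opposite strand, ending 13 bases before its start. Txndc5, which did not pass, holds it too.
Isg20, chr7:78913720-78913764, plus strand: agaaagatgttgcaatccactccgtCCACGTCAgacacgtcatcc

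Counted by the brightest probe set of each gene, genes of protein import, glycosylation and transport gave 3 calls, all higher, against 1.2% of all probe sets. Of 30 genes of translocation and N-glycosylation, Rpn2, a subunit of the oligosaccharyltransferase, was called, from 635 and 710 to 1356 and 1701 (2.26-fold, adjusted p = 0.04). For Rpn1 1 of 2 probe sets passed (log2 1.73 and 1.28), and for Sec61a1, the channel of the translocon, 1 of 2 passed as well (log2 1.62 and 1.04). Of 44 genes of ER to Golgi transport 2 were called. Kdelr1, the receptor that returns ER proteins from the Golgi, went from 517 and 504 to 1117 and 1436 (2.48-fold, adjusted p = 0.023). It read 929 and 1056 in resting cells. Gorasp2, a Golgi stacking protein, went from 113 and 90 to 373 and 528, but TD day 4 read 393 and 295. Outside the lists Rrbp1, a ribosome-binding protein of the ER, was at least 5.93-fold higher, and Tent5c, a poly(A) polymerase of plasma cells, was 5.61-fold higher.

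**Figure D3:**
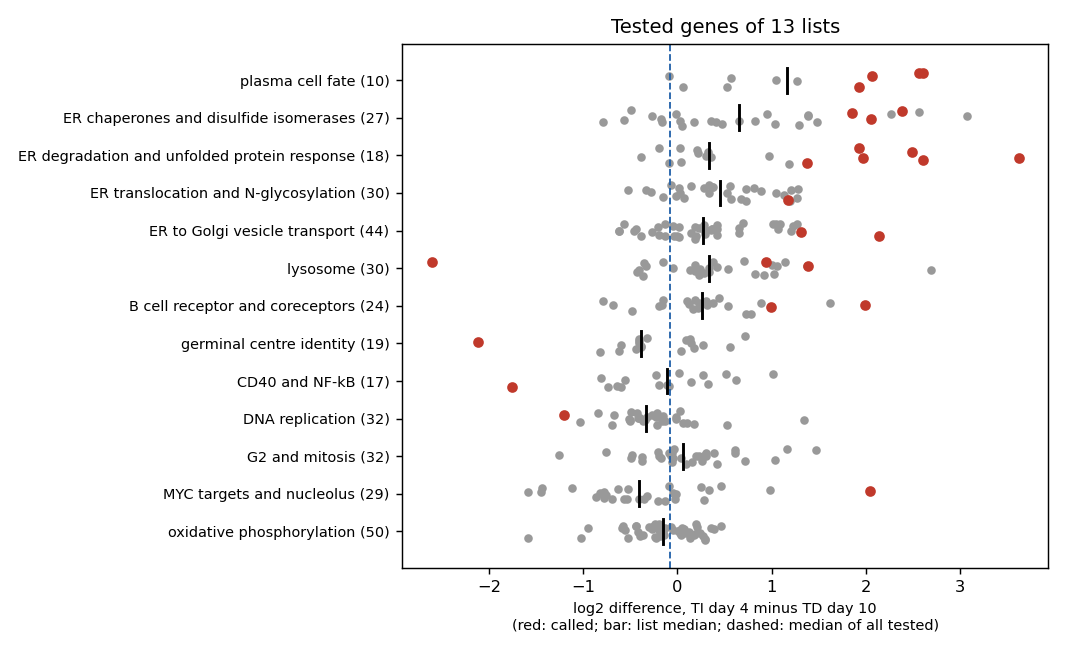
Log2 difference, TI day 4 minus TD day 10 (horizontal axis), of each tested gene in 13 lists, the number tested being in brackets. Called genes are red, black bars are list medians and the dashed line is the median of all probe sets tested, -0.08; secretory lists lie to its right and the germinal centre, DNA replication and MYC lists to its left.

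Immunoglobulin probe sets moved in both directions, by locus. A probe set annotated to more than 1 lambda light chain segment read 1246 and 1349 in TD day 10 and 20316 and 21989 in TI. TD day 4 read 2832 and 3894 and resting cells 2919 and 2860, so TI stood above all 6 other arrays. The difference was 16.3-fold (log2 4.03 ± 0.20, adjusted p = 0.0015), and this probe set was called in all 4 fits that left out a compared array and with the Gapdh covariate. Of 4 lambda probe sets tested 2 were called higher and 0 lower, against 1.2% of all probe sets in each direction. The second was annotated to Igll1, a surrogate light chain gene similar in sequence to the lambda constant region (3.15-fold, adjusted p = 0.014). The other 2 did not pass and differed the other way, by -0.53 in a second Igll1 probe set and -1.18 in one annotated to Iglc1.

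Kappa light chain probe sets were mostly lower. Of 33 tested, 13 were called lower and 1 higher, against 1.2% of all probe sets in each direction, and the median log2 difference was -1.45. In 27 both TI arrays were below both TD day 10 arrays and in 2 above, against 29.3% and 19.6% of all probe sets. Among the 13 kappa probe sets left when those of shared sequence were removed, 4 were lower and the median was -0.762. The brightest, annotated to several kappa segments, read 16156 and 17495 in TD day 10 and 12366 and 13149 in TI, 1.32-fold lower and not called (adjusted p = 0.27). The summed kappa signal overlapped, at 55967 and 71369 in TD day 10 against 56181 and 54257 in TI. A single probe set, annotated to Igkv9-120 and described below, supplied 1261 and 1901 of the TD day 10 sums. It supplied 22145 and 20776 of the TI sums, so the overlap depends on it. Igkv6-14 fell from 2364 and 3118 to 132 and 9, at least 26.3-fold (adjusted p = 0.0055), in 1 of 2 probe sets. Igkv10-96 was lower in all 3 of its probe sets, with log2 differences of -3.01, -2.92 and at most -2.91. Igkv4-68 read 1351 and 2114 in TD day 10 and 330 and 234 in TI, 6.08-fold lower. Against this, the probe set annotated to Igkv9-120 rose from 1261 and 1901 to 22145 and 20776 (13.9-fold, adjusted p = 0.037), while a second one read 199 and 221 against 125 and 145. Many of these probe sets share probes between segments, and the segment named is that of the annotation. The kappa calls numbered 0 without either TD day 10 array and without TI replicate 2, and 1 without TI replicate 1, while the median lay between -1.69 and -1.21. With the Gapdh covariate 0 were called and the median was -1.06.

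Heavy chain probe sets were split, 2 of 30 higher and 2 lower, against 1.2% of all probe sets in each direction. Their median log2 difference was -0.47, and it lay between -0.614 and -0.305 over the leave-outs of the compared arrays. With the Gapdh covariate 0 were called and the median was -0.143. Ighm, the constant region of IgM, was higher in 2 of 11 probe sets: one went from 4926 and 6089 to 15985 and 17178 (3.03-fold, adjusted p = 0.012) and the other from 8894 and 11545 to 26623 and 26193 (2.61-fold, adjusted p = 0.027). Resting cells read 14061 and 13376 in the first. Of the other 9 probe sets annotated to Ighm, none called, 7 had negative log2 differences, down to -1.98, 1 was at 0 and 1 at 1.05. Probe sets annotated to Ighg3 went both ways, one from 700 and 1001 to 70 and 67 (at least 10.3-fold lower, adjusted p = 0.037) and another from 978 and 1208 to 1979 and 3036 (2.26-fold, adjusted p = 0.071). No direction is given for that gene. The variable segment Ighv5-12 fell 4.50-fold, from 2093 and 3194 to 586 and 563.

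**Figure D4:**
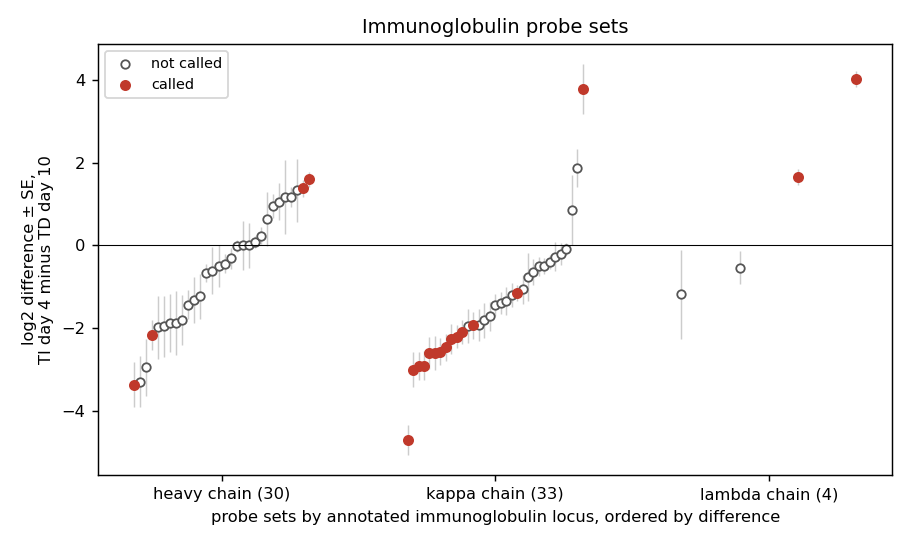
Log2 difference, TI day 4 minus TD day 10, with SE (vertical axis), for 30 heavy chain, 33 kappa and 4 lambda probe sets, ordered within each locus; filled points were called. Kappa points lie mostly below 0, while 2 of the 4 lambda points lie above it.

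Among 19 genes of germinal centre identity 1 was called, against 1.2% of all probe sets lower, and the median log2 difference was -0.388. The median was -0.219 without TI replicate 2 and -0.0976 with the Gapdh covariate. Gcsam, a signalling adaptor that limits the motility of these cells, read 768 and 501 in TD day 10 and 156 and 131 in TI, 4.34-fold lower (log2 -2.12 ± 0.30, adjusted p = 0.023). The TI values were near those of resting cells, 154 and 101, and TD day 4 read 753 and 661. The call was lost in each of the 4 fits that left out a compared array and with the Gapdh covariate. Basp1, a membrane-associated protein, fell 8.52-fold in 1 of 2 probe sets, from 4375 and 4794 to 584 and 495, while the other differed by -0.60 ± 0.21. Lmo2, a transcriptional partner protein of germinal centre B cells, was lower in 1 of 2 probe sets (log2 -1.29, the other -0.82). S1pr2, Mef2b, Ezh2 and Pax5 differed by -0.41, -0.43, 0.04 and 0.09 on the log2 scale, and none passed.

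Calls among signalling genes are given by list. Nfatc1, a transcription factor downstream of calcium signals from the antigen receptor, went from 220 and 266 to 1097 and 842 (3.97-fold, adjusted p = 0.011). Cd81, a tetraspanin membrane protein, went from 634 and 686 to 1245 and 1391 (2.00-fold, adjusted p = 0.036). These were the 2 of 24 receptor genes called (8.33%), both higher, against 1.2% of all probe sets called higher. Of 17 genes of CD40 and NF-kB signalling 1 was called, lower in TI, against 1.2% of all probe sets called lower. Nfkb2, the precursor of the p52 subunit, read 291 and 255 in TD day 10 and 74 and 10 in TI, at least 3.36-fold lower (adjusted p = 0.018), against 613 and 611 in resting cells.

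Calls among cell division genes were near the share of all probe sets, 2.4%. None of 32 genes of G2 and mitosis passed, with a median log2 difference of 0.063, and 1 of 32 replication genes did, with a median of -0.33. In 17 of the replication genes both TI arrays were below both TD day 10 arrays and in 3 above. In G2 and mitosis 9 were below and 13 above, and of all probe sets 29.3% were below and 19.6% above. Orc1, a subunit of the origin recognition complex, fell from 341 and 321 to 144 and 144 (2.30-fold, adjusted p = 0.018). Mki67, a marker of dividing cells, differed by -1.26 ± 0.35 and -0.10 ± 0.34 in its probe sets. Apex1, an endonuclease of base excision repair, fell from 508 and 518 to 198 and 225 (2.43-fold, adjusted p = 0.017). Mxd4, an antagonist of MYC, read 278 and 312 in TD day 10 and 1228 and 1198 in TI (4.12-fold, adjusted p = 0.017). It read 1251 and 1113 in resting cells, near the TI values. It was the only one of 29 genes of the MYC and nucleolus list that passed, and the median of that list was -0.410. None of 50 genes of oxidative phosphorylation and none of 16 of glycolysis passed, counts near the 2.4% called among all probe sets. The medians of these lists were -0.154 and -0.231.

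Other rises included the cathepsin Ctsb, from 873 and 907 to 2406 and 2239 (2.61-fold, adjusted p = 0.012), and Scd2, a fatty acid desaturase, at 2.24-fold. In resting cells Ctsb read 1831 and 2041 and Scd2 757 and 757. Slpi, a secreted protease inhibitor, fell 7.91-fold in 1 of 3 probe sets, from 697 and 1015 to 130 and 87. Hnrnpu, an RNA-binding nuclear protein, was under the floor on both TD day 10 arrays and read 1358 and 1792 in TI in 1 probe set, at least 19.3-fold higher (adjusted p = 0.0015), while its other probe set differed by -0.59. Gsta2, a glutathione transferase, was at the floor in TD day 10 and read 2244 and 3301 in TI, at least 33.6-fold higher, the largest rise called. Hsd3b5, a steroid-metabolising enzyme, rose 15.0-fold, from 137 and 107 to 2052 and 1606. Nadk, which makes NADP, was at least 11.9-fold higher and Rexo2, a mitochondrial exonuclease, was higher by 2.81 on the log2 scale. Among the falls, Dguok, a mitochondrial nucleoside kinase, was at least 4.70-fold lower in 1 of 2 probe sets and the splicing factor Srsf1 at least 5.14-fold in 1 of 4. The 3 probe sets annotated to Adck1, all of a kind whose probes can match several similar transcripts, were each at least 13.5-fold lower, and whether they measure that gene was not tested. Of 61 called genes with more than 1 tested probe set, 2 had all of them called in the same direction and 22 had probe sets of opposite sign. The largest fall among all called probe sets was in one that names no gene in the annotation, from 3567 and 3923 to 78 and 57, at least 46.2-fold.

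Single markers of macrophages, of red cells and of dendritic cells were called higher in TI. Apoe, a lipoprotein abundant in macrophages, rose from 371 and 850 to 4213 and 3371 (6.71-fold, adjusted p = 0.038), and the summed level of 22 macrophage markers was 5633 and 6632 in TD day 10 and 11247 and 9586 in TI. Without Apoe that sum was 5262 and 5782 in TD day 10 and 7034 and 6215 in TI. Apoe was the only one called. Of the 16 macrophage markers tested, 6 had both TI arrays above both TD day 10 arrays and 0 had both below, against 19.6% and 29.3% of all probe sets. Cd14 read 540 and 635 against 824 and 849, and C1qb 649 and 641 against 871 and 1066. Of the 22 markers 7 were at or under the floor on all 4 arrays, Lyz2 and Adgre1 among them. Slc4a1, the anion exchanger of red cells, rose from 252 and 221 to 1700 and 2317 (8.41-fold, adjusted p = 0.004), with the haemoglobin gene Hba-a1 at 696 and 447 against 508 and 490. The 13 red cell markers summed to 3503 and 3592 in TD day 10 and to 4542 and 4961 in TI, and without Slc4a1 to 3251 and 3371 in TD day 10 and 2842 and 2644 in TI. Of 6 dendritic cell markers tested 1 was called higher, against 1.2% of all probe sets, and the median log2 difference was -0.341. It was Cst3, from 878 and 1035 in TD day 10 to 1944 and 1720 in TI, against 1721 and 1587 in resting cells. The part of other cells in the results was not tested.

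The TI arrays were also set against TD day 4, which shares their day. Because the comparisons share arrays, their calls are not independent, and values are given side by side. At an adjusted p under 0.05, 105 of 7253 probe sets (1.45%) differed, 53 higher (0.731%) and 52 lower (0.717%) in TI. Edem1 differed by 2.46 ± 0.17 there and by 2.60 ± 0.17 against TD day 10, and Hsp90b1 by 2.12 and 2.05. Gcsam differed by -2.30 and -2.12, and Basp1 by -3.04 and -3.09 in the same probe set. Mxd4 differed by 0.99 against TD day 4 and 2.04 against TD day 10, and Orc1 by -0.32 and -1.20. In the direct comparison of TD day 10 with TD day 4, limma called 0 probe sets, with 373 at an unadjusted p under 0.05 and a smallest adjusted p of 0.142, and without the filter on low values it called 14.

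**Figure D5:**
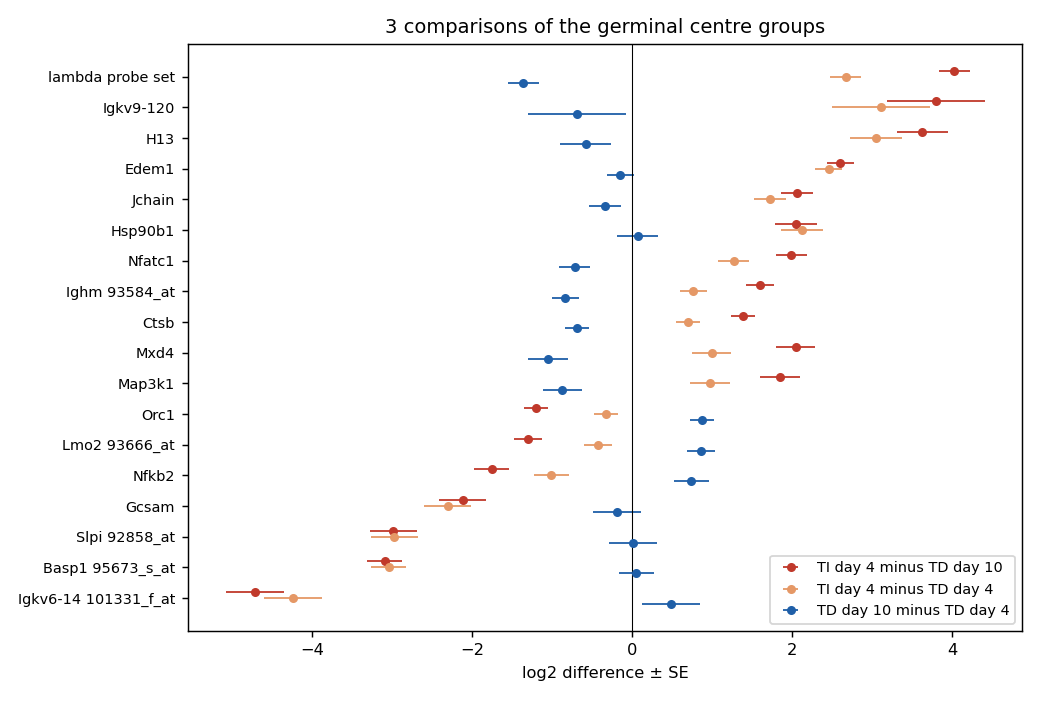
Log2 difference with SE (horizontal axis) of 18 probe sets in 3 comparisons of the germinal centre groups, which share arrays. For Edem1, Hsp90b1, Gcsam, Slpi and Basp1 both differences from TI day 4 are far from 0 while TD day 10 minus TD day 4 is near it.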

How the data were processed

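The authors hybridised RNA of sorted mouse B cells to Affymetrix arrays and deposited linear intensities. Per the labels' protocols RNA was extracted with RNAzol and biotin-labelled. The sources used here do not state the software, background correction or scaling. The values are whole numbers, 30.1% of them at or below 0, with a mean trimmed by 2% at each end of about 200.2 on every array, and array medians of 77 to 89. No normalization was added to them.

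Values under 81, the 50th percentile of all values, were set to it and log2 was taken. The filter took out 66 controls and the probe sets above that value on fewer than 2 of the 8 arrays, leaving 7253 of 12488. In limma 3.58.1 (R 4.3.3), 1 model of the 4 groups was fitted to all 8 arrays and variances were moderated by empirical Bayes (residual df 4, prior df 2.20). The test is two-sided, with Benjamini-Hochberg adjustment over the 7253 probe sets in each of 3 comparisons, and called means an adjusted p under 0.05. The fit was tested on simulated data.

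In the probe annotation 10833 probe sets name 1 gene, 396 several and 1193 none, and a gene is named from the first kind. A gene with several probe sets stands in a list by the brightest. Named are the 20 largest called rises and falls without overlap, called list members (or the 3 of smallest p), markers of the sort and immunoglobulin constant genes, of which the text gives part. The genes Igll1, Clgn, Sdc1, Cd14, C1qb, Rpn1, Sec61a1, Dnajc3, Lmo2, Hspa5, Txndc5, Canx, Pdia6, Tnfrsf17, Atf4, Ddit3, Herpud1, S1pr2, Mef2b, Ezh2 and Pax5 and the unnamed probe set with the largest fall lie outside that rule and were chosen after their values were seen. Members and lists were chosen with earlier results of these data known. Same-numbered arrays of the compared groups deviated with a correlation of 0.121, and no label pairs them.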

Additional observations from a re-analysis of the deposited data

How the results depend on the processing

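With 2 arrays a group, the number of calls depended on how the spread was estimated. All 174 calls kept their direction in every alternative that tested them. For leave-outs and other estimates of the spread this was fixed in advance, since the arrays of these calls do not overlap. For TI against TD day 10 the count was 104 with no filter, 0 with only the 4 compared arrays, 292 with array weights and 7 with the Gapdh ratio as a covariate, and it ranged from 4 to 245 when single arrays were left out. For TI against TD day 4 the same settings gave 42, 0, 261 and 0, and the leave-outs 0 to 125. For TD day 10 against TD day 4 they gave 14, 0, 0 and 0, and the leave-outs 0 to 1. Leaving out 1 array leaves its group with a lone array, assumed to vary like the other groups. With the replicate number as a block the counts were 107, 46 and 0, and the block is not a known pairing. The other alternatives (floors at the 40th and 60th percentile, a pseudocount, stricter filters, quantile and median scaling, a trended prior) gave 156 to 205 for the first comparison. Without immunoglobulin and other-cell probe sets it was 137. Chosen after seeing the data, the fit of the 6 germinal centre arrays gave 245 and the fit without shared-probe sets 123. Signals near the floor limit the folds of 83 calls.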
